A study of Xenopus laevis with 16 samples.

Results

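Control animal cap explants of Xenopus laevis were compared at 24 h with the same kind of explant at 2.5, 5 and 7.5 h. The comparison took the 4 control libraries of 16 in the series, chosen by the library names, with 1 library at 24 h and 3 libraries before it. The explants were uninjected ectoderm cut from blastula-stage embryos and cultured for the stated hours after excision, and each library was made from poly(A) RNA of pooled explants. The other 12 libraries came from explants with GATA4-GR, a GATA4 fusion switched on by dexamethasone, from explants with GATA4-GR and the Wnt inhibitor Dkk-1, and from explants with Nodal5, an inducer of mesoderm and endoderm, each sampled once at the same 4 times. They carry injected mRNA, which the control explants lack. Whether the control explants also received dexamethasone is not given in the sources used here.

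The animal cap is the roof of the blastula, made of cells that can still enter any germ layer. Left without inducing signals it forms epidermis of an atypical kind, with ciliated and secretory cells among it. Blastula cells carry mRNAs stored in the egg, and these are cleared while the embryo's own genome takes over, so an explant cultured for a day passes from an early embryonic RNA population to that of a differentiating tissue. X. laevis is an allotetraploid, and many of its genes exist as near-identical homeologous copies.

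The deposited table held expected counts for 54142 gene models, which are estimates of the reads that came from each model. The totals were 17145848 at 24 h, against 14298419, 23310242 and 18193989 at 2.5, 5 and 7.5 h. Of the values tested, 52.4% were not whole numbers. RSEM divides reads between models that share sequence, so a single model's value can include reads of its copy. None of the identifiers could be paired with a gene name, so models are described by their behaviour, and the epidermal identity of the explants could not be checked against marker genes. There is 1 library per time, and the spread used by the test is that of the 3 earlier libraries, which includes their own time course. The single 24 h library was assumed to vary like them. By their names, the 5 h libraries of all 4 treatments were sequenced again. An exact permutation test of 1 library against 3 cannot give a p below 0.25, so values of whole libraries are given without a test. In RNA from whole explants, fewer cells of a type and less RNA per cell cannot be told apart.

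Most models measured above the count filter differed at 24 h. Of 27150 models tested, 17971 passed the threshold of 0.1 for the adjusted p (66.2%), by edgeR's quasi-likelihood test with Benjamini-Hochberg adjustment. Of these, 9250 were higher at 24 h (34.1% of the models tested) and 8721 were lower (32.1%). All of the models called higher lay above the 3 earlier libraries, and all of those called lower lay below them. The calls and this range use the same libraries, so this is not a separate check. Without a test, 12064 models (44.4%) lay above the range of the earlier libraries at 24 h. A further 11819 (43.5%) lay below it and 3267 lay inside it. With the 4 libraries in random order, the probability would be 0.25 for each side. The range itself was narrow, with a median width of 0.452 on the log2 scale. At 24 h, 3656 models stood at least 4-fold above the highest earlier library and 2412 stood at least 4-fold below the lowest.

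The split of the calls depended on the scaling. TMM scaling sets the bulk of the models level, and its factor was 0.731 for the 24 h library, against 1.11 for each of the earlier libraries. Scaled by the library totals alone, 6438 models were called higher and 12300 lower, and the median log2 fold change of all models tested moved to -0.602, against -0.00189 with TMM. Higher and lower below are therefore relative to the typical model, unless CPM, counts per 1000000 counts of the library, is given.

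The counts of the called models followed the same division. Models called higher held 71.2% of the counts at 24 h, against 28.7%, 30.3% and 32.8% at 2.5, 5 and 7.5 h. Those called lower held 11.6% at 24 h, against 46.5%, 44.6% and 41.4% at the earlier times. The calls chose these models, so the shares describe how much of the library counts they made up.

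Over all models tested, the largest changes were increases. On the log2 CPM scale (TMM, prior count 2), 4526 models were at least 4-fold higher at 24 h than the mean of the earlier libraries (16.7% of those tested), and 3195 were at least 4-fold lower (11.8%). At 2-fold the numbers were nearly even, with 7992 models higher and 7337 lower. At 16-fold they were 1433 higher and 317 lower, at 64-fold 421 higher and 20 lower, and at 256-fold 81 higher and 1 lower. Scaled by the library totals alone, 3243 models were at least 4-fold higher and 5141 lower, so at 4-fold the larger side turned with the scaling, while at 16-fold there were 1019 higher and 571 lower. The largest increase was 12.9 on the log2 scale and the largest decrease was -8.49. A prior count and a limit of 0 counts both hold down the size a decrease can reach in a model of low starting level. Among models averaging at least 5 CPM before 24 h, a limit chosen after seeing the data, the larger side turned. There 174 models were at least 16-fold higher and 271 lower, and 926 were 4- to 16-fold higher and 1941 lower.

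**Figure D1:**
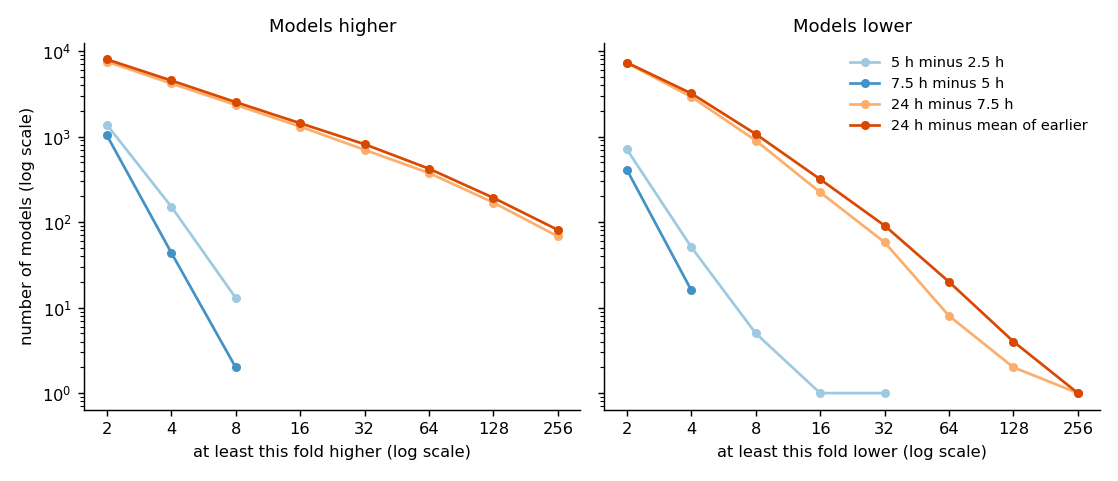
Number of models (log axis) at or beyond each fold change, higher on one panel and lower on the other, for the 24 h control library against the mean of the 3 earlier control libraries and for the steps between single control libraries. At 16-fold, 1433 models were higher and 317 lower at 24 h, and the steps between earlier libraries gave far fewer models at each fold.

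The share of models called in each direction differed between levels before 24 h. Among 5923 tested models averaging under 1 CPM before 24 h, 49.8% were called higher and 5.98% lower, and 40.7% were at least 4-fold higher. Among 8343 models between 1 and 10 CPM, 32.6% were called higher and 27.6% lower. Among 10332 models between 10 and 100 CPM, 27.2% were called higher and 46.8% lower. Among 2535 models between 100 and 1000 CPM, 30.0% were called higher and 48.4% lower, and 11.5% were at least 4-fold lower. Of the 17 models at or above 1000 CPM, 8 were called higher and 3 lower. Models under the limit of the count filter in every earlier library could pass it only through a higher value at 24 h. This favours increases in the lowest band, although 354 of its models were called lower. All bands were cut on the earlier values that the calls also use. Their shares are therefore a description, and the lowest band is not a sign of its own direction.

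The changes before 24 h were much smaller. Between 2.5 and 5 h, 152 models were at least 4-fold higher and 51 lower, and between 5 and 7.5 h the numbers were 44 and 16. Between 7.5 and 24 h they were 4181 and 2916. The standard deviation of the log2 difference over all models tested was 0.544 and 0.473 in the first steps and 2.01 in the last. Across the models tested, the log2 CPM of the 24 h library correlated with those of the 2.5, 5 and 7.5 h libraries with Pearson's r of 0.705, 0.724 and 0.746 (Spearman's rho 0.724, 0.741 and 0.762). Among the earlier libraries r was 0.971 to 0.987. These correlations are across genes, which are not independent replicates.

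The last interval was also the longest. Among 18228 models averaging at least 50 counts, the median size of the log2 difference was 0.181 from 2.5 to 5 h, 0.174 from 5 to 7.5 h and 1.05 from 7.5 to 24 h. Divided by the hours between the libraries, these were 0.0725, 0.0697 and 0.0639 per hour. The median net change per hour was thus of like size in all 3 intervals. Taken as 1 interval, 2.5 to 7.5 h gave 0.0553 per hour, below the value of either of its parts. The value per hour therefore depended on the interval taken, and a constant pace was not tested. Counting error was not subtracted from these values, and it weighs most on the smallest differences.

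The share of the library total that moved between models gives the same order. Between 2.5 and 5 h, 6.52% of the counts would have to be reassigned to turn the earlier library's composition into the later one, and between 5 and 7.5 h it was 6.0%. Between 7.5 and 24 h it was 39.5%. In the last interval it was 33.5% in GATA4-GR explants, 34.8% in GATA4-GR+Dkk-1 explants and 32.4% in Nodal5 explants. From 2.5 to 24 h it was 43.3% in control explants, against 38.3%, 39.1% and 44.2% in the same order of treatments, and from 2.5 to 7.5 h it was 10.4% in control explants, against 11.6%, 10.5% and 21.1%.

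A small number of models were switched on. Counted as switched on were models with at most 3 counts in each earlier library and at least 5 CPM at 24 h, and 158 of the 54142 models met this (0.292%). Models with at most 3 counts at 24 h and at least 5 CPM in each earlier library were counted as switched off, and these were 45 (0.0831%). By the same limits the 5 h library had 0 models switched on and 1 switched off against the 2.5 h library, and the 7.5 h library had 0 and 0 against the 5 h library. Each of these steps used a single earlier library. Against the 7.5 h library alone, the 24 h library had 228 models switched on and 52 switched off, over a longer interval. These limits chose the models, so their difference at 24 h is a description.

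**Figure D2:**
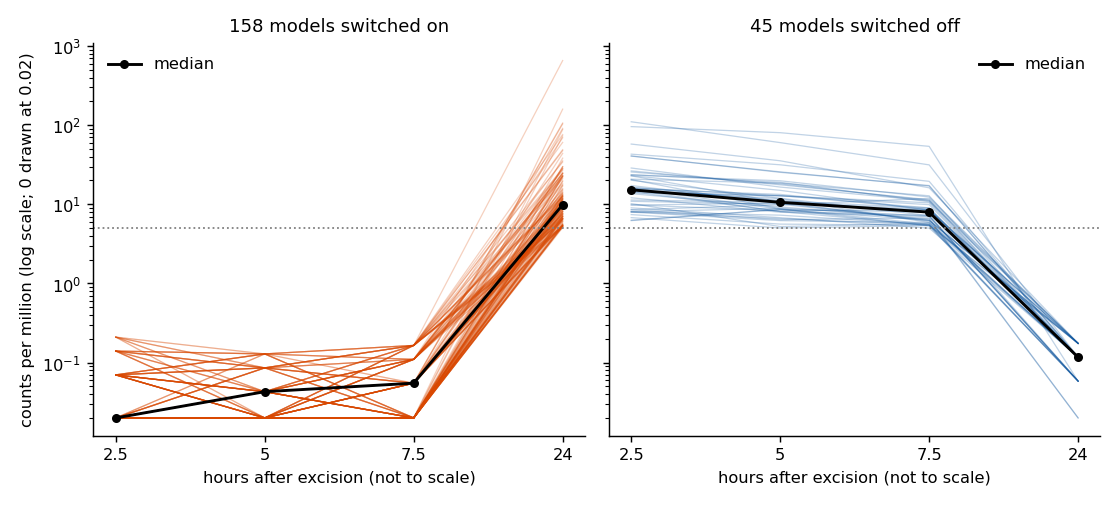
CPM (log axis) of the models switched on and switched off in the 4 control libraries by hours after excision, with 1 line per model, their median and the level of 5 CPM as a dotted line. The 158 models switched on had a median of 9.89 CPM at 24 h, and the 45 switched off had medians of 15.2, 10.6 and 7.97 CPM at 2.5, 5 and 7.5 h and 0.117 CPM at 24 h.

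The models switched on were mostly of modest level. They had 86 counts at the lowest, 169.5 at the median and 11232 at the highest at 24 h, or 5.02, 9.89 and 655 CPM. Of the 158, 77 reached 10 CPM, 10 reached 50 CPM and 4 reached 100 CPM. Together they held 57249 counts at 24 h (0.334% of the total), against 114, 146 and 173 counts at 2.5, 5 and 7.5 h. The highest model alone held 19.6% of the set's counts, with 11232 counts at 24 h against 3, 2 and 3 counts before. The next held 2731 counts at 24 h and 0 in each earlier library. At 24 h, 41.8% of the set's values were not whole numbers, against 68.0% of the 14096 models at or above 5 CPM in that library.

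The early counts of these models were at or near 0. The number at 0 counts was 84 at 2.5 h, 71 at 5 h and 65 at 7.5 h, and 26 models had 0 in all 3. With a floor of 3 counts per library, those 26 were at least 25-fold to at least 759-fold higher at 24 h, with a median bound of 45.7-fold. Counts this low leave the order of the earlier libraries open. Of the 158 models, 18 rose in both early steps, against 26.6% of all models tested.

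The limits cut through a continuous range of values. With the same level at 24 h, 43 models had a highest earlier count of 3 and 44 had a highest earlier count of 4, which left them outside. With the same early limit, 26 models lay between 5 and 6 CPM at 24 h and 40 lay between 4 and 5 CPM. On the other side, 13 models had 3 counts at 24 h and counted as switched off, and 25 had 4 counts and did not.

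The models switched off were already declining. Their medians were 15.2, 10.6 and 7.97 CPM at 2.5, 5 and 7.5 h. Of the 45, 43 were lower at 7.5 h than at 2.5 h, and 36 fell in both early steps. Of all tested models averaging at least 5 CPM before 24 h, 36.4% fell in both steps after TMM scaling. The ratio of the 7.5 h CPM to the 2.5 h CPM had a median of 0.554 and ran between 0.267 and 1.39. At 24 h the set held 89 counts in all (0.000519% of the total), against 0.0957%, 0.0677% and 0.0461% of the totals at 2.5, 5 and 7.5 h. At 24 h, 2 of the models had 0 rounded counts, 10 had 1, 20 had 2 and 13 had 3, so most were not at 0. The 2 models at 0 were at least 36.5-fold and at least 37.4-fold lower at 24 h, with the same floor. Without the 7.5 h library, where the levels were lowest before 24 h, 72 models met the limits.

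The models steeply lower at 24 h had mostly declined before. Grouped by their fold at 24 h, the 317 models at least 16-fold lower had a median log2 difference between 7.5 and 2.5 h of -0.75, and 79.8% of them fell in both early steps. The 2878 models 4- to 16-fold lower had a median of -0.35, and 55.8% fell in both steps. In the 4142 models 2- to 4-fold lower the median was -0.16 and 41.7% fell in both steps, and of all models called lower 46.6% did. Of all models tested, 27.9% fell in both steps, and the median difference was 0.01. The 1433 models at least 16-fold higher had a median of 0.38, and 34.9% of them rose in both early steps. The share was 37.1% in the class 4- to 16-fold higher and 37.3% in the class 2- to 4-fold higher, against 26.6% of all models tested. Over tested models of every level, the share on this side thus did not grow with the fold. The classes were cut from the mean of the same early libraries, so these numbers are given without a test.

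The shares on the higher side depended on the level of the models counted. Among models averaging at least 5 CPM before 24 h, a limit chosen after seeing the data, 174 were at least 16-fold higher at 24 h. Of these, 70.1% rose in both early steps, against 24.5% of all models at that level, and their median early difference was 0.70. The share was 48.8% in the class 4- to 16-fold higher and 39.4% in the class 2- to 4-fold higher. At this level it thus grew with the fold. The 271 models at that level that were at least 16-fold lower had a median of -0.77, and 82.7% of them fell in both steps, against 36.4% of all.

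**Figure D3:**
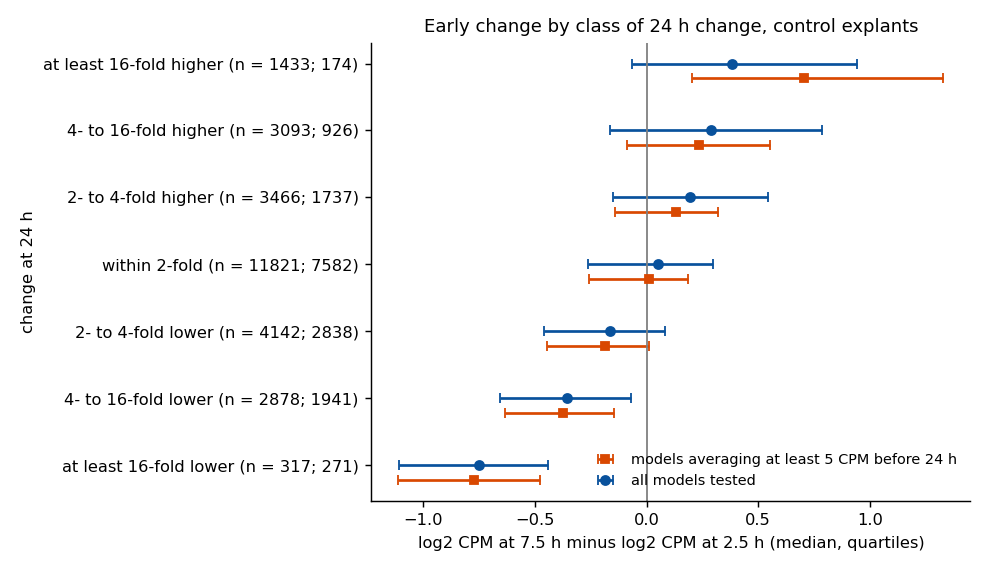
Median log2 CPM difference between 7.5 and 2.5 h in control explants (points, with bars for the quartiles over models) by fold class at 24 h, for all models tested and for those averaging at least 5 CPM before 24 h, with both numbers of models beside each class. The median early difference ran from 0.38 in the class at least 16-fold higher down to -0.75 in the class at least 16-fold lower over all models tested.

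The class at least 16-fold higher had low early levels, and the class at least 16-fold lower did not. A measured 16-fold fall needs a high enough early level. Models under the count filter in every earlier library passed it only through their value at 24 h. The contrast in early level is thus partly set by the cut and the filter, and is a description. The median of all models tested was 8.46 CPM at 2.5 h. The 1433 models at least 16-fold higher had a median of 17.6 CPM at 24 h, against 0.280, 0.343 and 0.440 CPM at 2.5, 5 and 7.5 h. They held 16.4% of the counts at 24 h, against 0.374%, 0.494% and 0.661% before. The 317 models at least 16-fold lower had a median of 0.350 CPM at 24 h, against 26.1, 20.9 and 15.9 CPM before, and their share was 0.0316% at 24 h, against 1.72%, 1.39% and 1.06%. Models within 2-fold held 37.9% at 24 h, against 53.2%, 54.2% and 55.1% at the earlier times.

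The counts were concentrated in fewer models at 24 h. The 849 highest models held 50% of the counts at 24 h, against 2003, 1889 and 1775 at 2.5, 5 and 7.5 h. The 10 highest held 7.29% at 24 h (95% Wilson interval 7.28 to 7.30%), against 3.53%, 3.67% and 4.32% (3.52 to 3.54%, 3.66 to 3.67% and 4.31 to 4.33%). Intervals and floors here cover counting error only. The 100 highest held 23.1% at 24 h, against 9.78%, 10.5% and 11.7%, and the 1000 highest held 52.8%, against 35.0%, 36.4% and 38.0%. The effective number of models, the exponential of the Shannon entropy of the counts, was 4559 at 24 h, against 8403, 8115 and 7725.

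**Figure D4:**
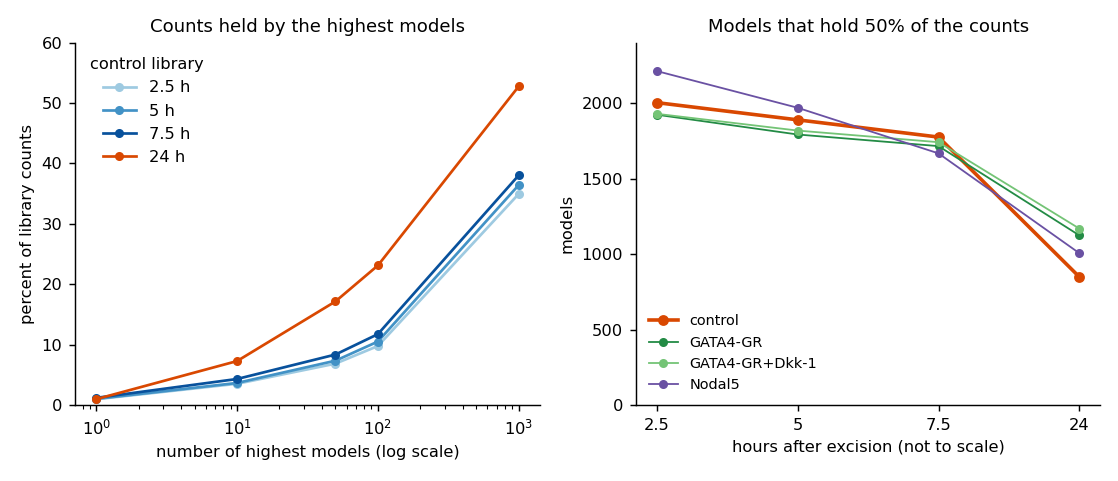
Percent of the library counts held by the highest models against their number (log axis) in the 4 control libraries, and the number of models that hold 50% of the counts in the libraries of each treatment by hours after excision. In control explants that number was 849 at 24 h, below the 2003, 1889 and 1775 of the earlier libraries.

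The gain was spread below the single highest model. The highest model held 0.988% at 24 h, against 0.975%, 1.04% and 1.20% at 2.5, 5 and 7.5 h. Models at or above 1000 CPM numbered 95 at 24 h, against 13, 17 and 28. The number of models detected changed little, with 36229 at 24 h against 35060, 35543 and 36837 when every library was brought to the depth of the smallest. At or above 1 CPM there were 20885 models at 24 h, against 20730, 21079 and 21525.

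Most models at the top of the 24 h library had ranked lower before. Of its 10 highest models, 8 were called higher, and these 8 held 5.63% of the counts at 24 h, against 0.236%, 0.303% and 0.381% at 2.5, 5 and 7.5 h. Their log2 differences ran between 3.07 and 12.9. The other 2 were not called. They ranked 1 and 2 at every earlier time and 3 and 4 at 24 h, with 8853 and 7786 CPM at 24 h against 11980 and 11215 CPM at 7.5 h. Their direction was the reverse after TMM scaling, with log2 differences of 0.33 and 0.29. Of the 100 highest models, 95 were called higher, 66 were at least 4-fold higher and 29 at least 16-fold higher. Only 44 of them were among the 100 highest at 7.5 h, whereas 82 of the 100 highest were shared between 7.5 and 2.5 h. The first pair of libraries lay 16.5 h apart and the second 5 h. Of the 1000 highest, 868 were called higher, 28 were called lower and 518 were shared with the 1000 highest at 7.5 h. Of all models tested, 34.1% were called higher and 32.1% lower, 16.7% were at least 4-fold higher and 5.28% at least 16-fold higher. The highest models were ranked by the same 24 h library that the calls use, which by itself favours models called higher.

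The direction in which the share of the models abundant at 7.5 h moved by 24 h depended on how many were counted. The 100 highest models of the 7.5 h library held 14.3% of the counts at 24 h, against 11.7% at 7.5 h. Its 10 highest held 4.06% at 24 h, against 4.32% at 7.5 h. Its 50 highest held 10.1% at 24 h, against 8.37%, and its 1000 highest held 36.9%, against 38.0%.

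Among models called, outside the range of the earlier libraries and at least 16-fold changed, the most abundant are given by identifier. Xelaev16063240m.g had 159518 counts at 24 h, against 450, 1486 and 1977 counts at 2.5, 5 and 7.5 h. In CPM these were 9304 at 24 h and 31.5, 63.7 and 109 before. The 24 h library was far above the others, which themselves were in order of time, and the model ranked 2 at 24 h against 7793, 4296 and 2224 before. Its log2 fold change was 7.70 (standard error 0.589, adjusted p = 0.000199, edgeR's quasi-likelihood test).

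Xelaev16009392m.g was abundant from the start and had 131267 counts at 24 h, against 6156, 13749 and 14068 counts at 2.5, 5 and 7.5 h, or 7656 CPM at 24 h against 431, 590 and 773 CPM. It ranked 5 at 24 h, against 163, 83 and 59. Its log2 fold change was 4.28 (standard error 0.290, adjusted p = 0.000135, edgeR's quasi-likelihood test).

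Xelaev16079406m.g fell to 442 counts at 24 h, against 11362, 16394 and 10060 counts at 2.5, 5 and 7.5 h. In CPM it had 25.8 at 24 h, against 795, 703 and 553, so it was lower in each later library. Its log2 fold change was -4.13 (standard error 0.296, adjusted p = 0.000162, edgeR's quasi-likelihood test).

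Xelaev16012074m.g had a flat early course, with 16.1 CPM at 24 h against 475, 458 and 460 CPM at 2.5, 5 and 7.5 h. The counts behind these were 276 at 24 h and 6794, 10665 and 8366 before. Its rank was 8718 at 24 h, against 125, 158 and 169. Its log2 fold change was -4.25 (standard error 0.182, adjusted p = 3.73e-05, edgeR's quasi-likelihood test). The 4 models kept their direction and their side of the threshold under each alternative of the test that was run. They had been chosen as called, abundant and at least 16-fold changed, which made this likely beforehand.

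The injected explants also changed at 24 h. With the 16 libraries scaled together, the standard deviation of the log2 difference between 24 h and the earlier mean was 2.08 in control explants, against 1.79 in GATA4-GR, 1.84 in GATA4-GR+Dkk-1 and 1.82 in Nodal5 explants. At least 4-fold higher were 4512 models in control explants, against 3536, 3811 and 3202 in the same order of treatments, and at least 4-fold lower were 3141, against 2413, 2679 and 3100. These are the models that passed the count filter in the control libraries, which leaves out models seen mainly in injected explants. Over the 30958 models that passed it in all 16 libraries, the standard deviation was 1.99 in control explants, against 1.81, 1.87 and 1.88. There 4737 models were at least 4-fold higher in control explants, against 4601, 5049 and 4334, and 3164 were at least 4-fold lower, against 2505, 2739 and 3196, so which treatment had more depended on the models counted. Across the 27150 models, the change in control explants correlated with that in GATA4-GR explants with Pearson's r of 0.786, with that in GATA4-GR+Dkk-1 explants with 0.799 and with that in Nodal5 explants with 0.636 (Spearman's rho 0.783, 0.797 and 0.677). These pairs share no library. The points are models of 1 set of libraries and carry no test.

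Many of the control calls had the same direction in the injected explants. Of the models called higher in control explants, 60.7% were at least 2-fold higher at 24 h in GATA4-GR explants, 62.5% in GATA4-GR+Dkk-1 explants and 52.3% in Nodal5 explants, against 26.6%, 27.9% and 25.6% of all models tested. Of those called lower, 59.2%, 62.8% and 61.4% were at least 2-fold lower, against 24.2%, 25.1% and 27.3%. The steepest models were shared less in size. The 1433 models at least 16-fold higher in control explants had a median log2 difference of 5.17 there, against 3.25, 3.37 and 1.93 in the injected explants, and the 317 at least 16-fold lower had a median of -4.49, against -3.60, -3.82 and -3.68. The limit was set on the control values, which pushes these medians apart.

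The difference of the 24 h change itself was tested over all 16 libraries. It passed the threshold in 3927 of 30958 models between control and GATA4-GR explants (12.7%), in 3644 between control and GATA4-GR+Dkk-1 explants (11.8%) and in 5789 between control and Nodal5 explants (18.7%), by edgeR's quasi-likelihood test with Benjamini-Hochberg adjustment. The change was the more positive in control explants for 2274, 2185 and 3520 of these models and the more negative for 1653, 1459 and 2269. The 3 tests share the control libraries. That fit takes the differences between 2.5, 5 and 7.5 h as spread. With time as a term (6 residual degrees of freedom, a fit chosen after seeing the data), 7970, 7711 and 9529 models were called in the same order.

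The models switched on and off were chosen by their level in the control library at 24 h, which by itself sets the control library apart from the others, so their values in injected explants are a description. For the models switched on, the median was 9.89 CPM in control explants, against 2.24 in GATA4-GR, 2.1 in GATA4-GR+Dkk-1 and 0.285 in Nodal5 explants, and their summed share was 0.334%, against 0.143%, 0.117% and 0.0409%. At least 5 CPM was reached by 43, 36 and 14 of the 158 models in the injected explants, by 8 models in all 3 of them and by 103 in none. The models switched off had a median of 0.117 CPM in control explants, against 0.335, 0.336 and 0.569 CPM. Only 4 of the 45 had at most 3 counts in all 3 injected explants. However, 34 of them were under 5 CPM in all 3, and 2 were at or above 5 CPM in all 3.

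**Figure D5:**
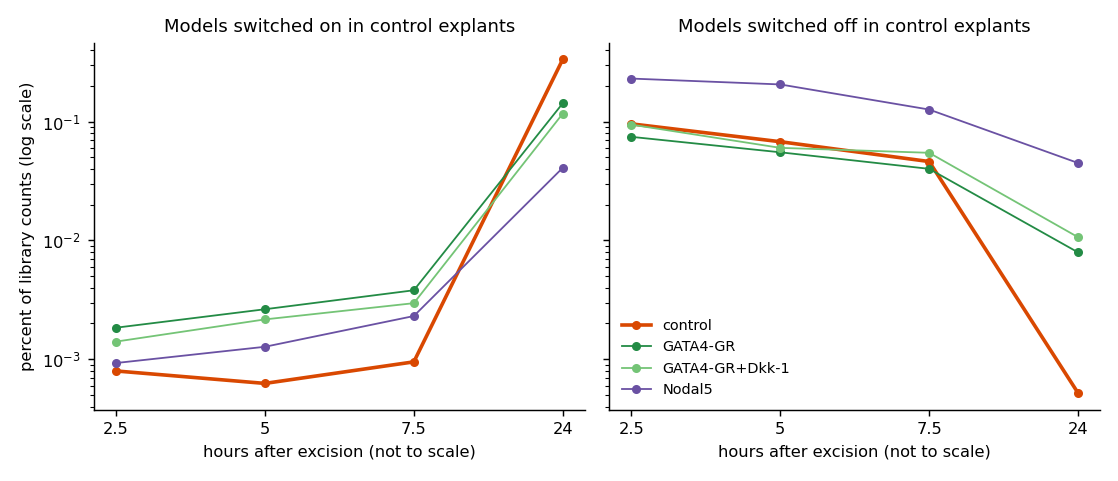
Summed share of the library counts (log axis) held by the models switched on and by those switched off in control explants, by hours after excision and treatment. The sets were chosen on the control libraries. At 24 h the models switched on held 0.334% in control explants, against 0.0409% with Nodal5, 0.143% with GATA4-GR and 0.117% with GATA4-GR+Dkk-1.

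The limits were also applied to each treatment's own libraries. There were 158 models switched on and 45 switched off in control explants, against 109 and 29 in GATA4-GR, 113 and 25 in GATA4-GR+Dkk-1 and 120 and 26 in Nodal5 explants. Against the 7.5 h library alone the numbers were 228 and 52 in control explants, against 142 and 35, 237 and 27, and 197 and 26, so GATA4-GR+Dkk-1 explants then had more models switched on. The limit of 3 counts falls on libraries of different depth. The counts were less concentrated in the injected explants, with 50% of them held by 849 models at 24 h in control explants, against 1124, 1169 and 1006. At 7.5 h the number was 1775 in control explants, against 1715, 1741 and 1667. With 1 library for each of these values, the differences between treatments have no replicate check.

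The 4 named models were chosen on the control libraries, so their levels in the injected explants are given without a test. Xelaev16063240m.g had 9304 CPM at 24 h in control explants, against 110 CPM with Nodal5, 2209 CPM with GATA4-GR and 1616 CPM with GATA4-GR+Dkk-1. Xelaev16009392m.g had 7656 CPM in control explants, against 137, 3320 and 2761 CPM in the same order of treatments. Both were thus highest in control explants at 24 h and lowest in Nodal5 explants, and this was already so at 2.5 h. At that time Xelaev16063240m.g had 31.5 CPM in control explants, against 3.87, 19.6 and 13.5 CPM in the same order. Xelaev16009392m.g had 431 CPM, against 47.6, 228 and 170 CPM. The levels at 24 h alone therefore do not show a difference in the rise. In the fit of all 16 libraries, the change at 24 h was more positive in control than in Nodal5 explants. The log2 difference was 3.18 for Xelaev16063240m.g and 2.77 for Xelaev16009392m.g. Against GATA4-GR explants it was 1.097 and 0.503, and against GATA4-GR+Dkk-1 explants 1.02 and 0.294. These are sizes only, and no difference is claimed from them. Both models were chosen as steep risers in control explants, which by itself favours a more positive change there. From 7.5 to 24 h, Xelaev16009392m.g went from 773 to 7656 CPM in control and from 62.8 to 137 CPM in Nodal5 explants.

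Xelaev16079406m.g was low at 24 h in every treatment, with 25.8 CPM in control explants against 40.7 CPM in GATA4-GR, 35.7 CPM in GATA4-GR+Dkk-1 and 19.4 CPM in Nodal5 explants. Xelaev16012074m.g had 16.1 CPM in control explants, against 321, 282 and 919 CPM in these. Before 24 h the model had had 344, 305 and 318 CPM in GATA4-GR explants, 382, 306 and 309 CPM in GATA4-GR+Dkk-1 explants and 350, 551 and 701 CPM in Nodal5 explants. None of these fell at 24 h to the level of the control explants.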

How the data were processed

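From paired-end reads of poly(A) RNA, the authors made expected counts per model with RSEM after alignment by Bowtie (at most 3 seed mismatches). The models were JGI release v7.2. The versions of both tools are not given in the sources used here. The deposited expected counts were rounded. Models were filtered with filterByExpr (minimum count 10) and scaled by TMM, and the 24 h control library was tested against the 3 earlier control libraries with the quasi-likelihood test of edgeR 4.0.16 in R 4.3.3 (2 residual degrees of freedom, adjusted p threshold 0.1). The difference of the 24 h change between treatments used all 16 libraries and the same test (8 residual degrees of freedom). Standard errors of the named models were the size of the log2 fold change divided by the square root of the test's F value. They rest on the same spread as the test. DESeq2 1.42.0 was an alternative. The biological coefficient of variation was 0.195 in the control fit and 0.264 in the fit of all libraries. The scripts were tested on simulated data with few changed models and no early time course. The error rate under the conditions of these data was not tested.

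The authors' own calls compared treatments at single times and are not used here. No identifier matched the RefSeq gene table (0 of 54142). Named models were the most abundant 2 at 24 h that rose and the most abundant 2 before 24 h that fell, among models called, outside the earlier range and at least 16-fold changed. Groups were taken from the library names. The comparison, the models and the limits were chosen with earlier results of these data known. A fit of all libraries with time as a term was added after seeing the data. Alternatives were the scaling, test, filter, threshold, minimum fold, prior count, libraries in the fit, depth and the limits for on and off. Depth was 14298419 to 23310242 counts per control library, which limits counting error but not the error between batches of explants. The depositors do not state that libraries came from separate cultures, so p-values measure the spread between these libraries.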

Additional observations from a re-analysis of the deposited data

Results flagged for a closer look

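The 24 h change differed between control and injected explants by the test of the difference over all 16 libraries (edgeR's quasi-likelihood test, adjusted p threshold 0.1). It was called in 3927 models against GATA4-GR, in 3644 models against GATA4-GR+Dkk-1 and in 5789 models against Nodal5. With time as a term, 7970, 7711 and 9529 models were called in that order. Each treatment had 1 library at 24 h, and all 3 comparisons rest on the same control library at that time.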

How the results depend on the processing

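Against a minimum change of 2-fold (edgeR's glmTreat), 5853 models were higher and 4981 lower at 24 h. Leaving out each earlier library in turn gave 7477 to 9582 models higher and 6959 to 9166 lower, and DESeq2's Wald test gave 7951 and 7714. With the library totals alone, 5141 models were at least 4-fold lower. The numbers switched on and off moved with their limits. With off meaning 0 counts they were 26 and 2, and with up to 10 counts 404 and 230. With on meaning at least 1 CPM they were 536 and 408, and with at least 10 CPM 77 and 13. Thinned to the smallest total, 70 models were switched off. Leaving out each earlier library gave 166 to 209 switched on and 47 to 72 switched off, with 72 when the 7.5 h library was left out. The 10 highest models held 6.82% of the counts when the highest model was left out and 7.30% when only tested models were counted. Of the models at least 16-fold higher, 70.1% rose in both early steps among those averaging at least 5 CPM before 24 h. No model was called in opposite directions in any setting (0 models). At steeper limits the library totals alone gave 571 models at least 16-fold lower, against 317 with TMM, 40 against 20 at 64-fold lower and 50 against 81 at 256-fold higher. No paired analysis was possible because the replicate numbers are all 1 and pair no libraries. The times are shared, however, and with time as a term, chosen after seeing the data, the change at 24 h differed in 7970 models from GATA4-GR, 7711 from GATA4-GR+Dkk-1 and 9529 from Nodal5. Depth limits the models of under 3 counts, and the error of the 24 h library itself was not measured.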
